A study of Mus musculus with 58 samples.

Results

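Border-associated macrophages are the long-lived macrophages of the meninges, the perivascular space and the choroid plexus. They lie beside microglia, the macrophages of the brain tissue itself, and are told apart from them by scavenger receptors and secreted proteins that microglia in the tissue make little of. This account follows 8 genes of that kind: the endocytic receptors Mrc1, Stab1, Lyve1, Cd163 and Folr2, the secreted proteins Pf4 and F13a1, and the enzyme Cbr2. They were chosen by symbol, and all 8 were found among the 47643 genes listed for every library.

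The libraries are QuantSeq 3′ mRNA-Seq libraries, in which each RNA gives reads near its 3′ end, from 34 mouse microglia samples. The first experiment used wildtype primary microglia given full-length tau fibrils at 2 µg/ml for 24 hours (4 libraries) or vehicle (4). The second used microglia isolated from the brains of male P301S+ mice (PS19, a line with a mutant human tau transgene) aged 10.98 months (4) and of non-transgenic (NTG) males aged 10.98 months (2) or 11.18 months (2). The Ikbkb experiments used primary microglia in which Ikbkb, the gene of the kinase IKKβ that switches on NF-κB signalling, had been altered by Cre: IkbkbCA (5), which gain a constitutively active IKKβ, with IkbkbWT controls (5), and Ikbkb-/- (4), which lose Ikbkb, with Ikbkb+/+ controls (4). Both altered genotypes carry Cx3cr1 CreERT2/+, an inducible Cre in the Cx3cr1 locus, the controls of both experiments carry no Cre, and all 4 groups received 4-hydroxytamoxifen. The allele that carries Cre therefore goes with the Ikbkb change in both experiments. Primary cultures came from newborn cortex and hippocampus freed of meninges, and adult cells were taken with CD11b beads, a handle that border-associated macrophages share with microglia. Nothing in the labels ties the replicates of a culture group to separate animals, so p-values measure the spread between these libraries, which may be technical. In bulk RNA of this kind fewer cells of a type and less RNA per cell cannot be told apart.

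Total counts per library were 1672052 to 8349128. The macrophage gene Csf1r, the receptor microglia need to survive, was present in all 34 libraries, at 469.6 CPM (counts per library scaled to a common total) or more. Ikbkb was lower in all 4 Ikbkb-/- libraries (18.5 to 24.6 CPM) than in the Ikbkb+/+ libraries (44.7 to 55.2 CPM), while IkbkbCA (44.2 to 59.6 CPM) and IkbkbWT (39.9 to 57.8 CPM) overlapped, and whether reads of the IkbkbCA transgene count on Ikbkb is not given in the sources used here. Cx3cr1 was lower in both Cre genotypes, with log2 fold changes of -0.56 ± 0.09 (SE) in IkbkbCA and -1.16 ± 0.12 in Ikbkb-/-. The sexes were not mixed evenly: the Y-linked Ddx3y was 154 to 172 CPM in Ikbkb-/- but 35.0 to 68.3 CPM in Ikbkb+/+, and 141 to 173 CPM in IkbkbWT replicates 1 to 3 but 1.11 and 1.98 CPM in replicates 4 and 5. In the Ikbkb-/- experiment the sex mix and the genotype therefore cannot be told apart. Ddx3y was 49.0 to 84.2 CPM in IkbkbCA, between the low and the high IkbkbWT libraries. The sex mix of IkbkbCA thus also differed from that of its control libraries.

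Mrc1, the mannose receptor CD206, takes up glycoproteins and is the most used surface marker of border-associated macrophages (ENSMUSG00000026712, GRCm38 chr2:14229392-14332057, + strand, an overlapping Mir511 lying inside it). Its level was highest in the controls of both Ikbkb experiments, at 1196 ± 93.1 CPM (SD, n = 4) in Ikbkb+/+ and 1122 ± 128 CPM (n = 5) in IkbkbWT, which overlapped. Next came Ikbkb-/- (407 ± 133 CPM), IkbkbCA (272 ± 50.7 CPM), PS19 (258 ± 189 CPM) and NTG (195 ± 56.8 CPM), each overlapping its neighbour in that order. The cultures of the tau experiment were far lower, at 16.8 ± 1.22 CPM after tau fibrils and 12.9 ± 5.24 CPM with vehicle. Levels across the 4 experiments are on 1 scale (TMM over the 34 libraries), but the experiments differ in culture, 4-hydroxytamoxifen and age, which cannot be told apart for any difference between them, and no test was made across them.

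Stab1, stabilin 1, is a scavenger receptor found on perivascular macrophages (ENSMUSG00000042286, chr14:31139013-31168641, − strand). Its 3′ end overlaps Nt5dc2 on the other strand. It followed the same order of groups as Mrc1 over the first 6 places: IkbkbWT 1666 ± 313 CPM and Ikbkb+/+ 1488 ± 136 CPM, then Ikbkb-/- at 634 ± 108 CPM, IkbkbCA at 449.7 ± 48.7 CPM, PS19 at 401 ± 191 CPM and NTG at 320.4 ± 35.4 CPM, with the places of IkbkbWT and Ikbkb+/+ exchanged. Tau fibrils (182 ± 9.40 CPM) and vehicle (99.7 ± 16.1 CPM) came last and did not overlap.

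The 250 bases before the start site of Mrc1, of Stab1 and of Pf4 are printed here because Mrc1 and Stab1 moved together in both Ikbkb experiments whereas Pf4 did not follow them in IkbkbCA. They are RefSeq sequences on GRCm38.p6, read 5′ to 3′ on the strand of the gene. Capitals mark GAGGAA, a core of the sites of PU.1, the factor that sets macrophage identity (or its reverse complement), and TGCTGA, a half-site of MAF factors. The regions are chr2:14229164-14229413 (+ strand), whose last bases run into the first annotated transcript of Mrc1, chr14:31168642-31168891 (− strand) and chr5:90772185-90772434 (+ strand).
Mrc1: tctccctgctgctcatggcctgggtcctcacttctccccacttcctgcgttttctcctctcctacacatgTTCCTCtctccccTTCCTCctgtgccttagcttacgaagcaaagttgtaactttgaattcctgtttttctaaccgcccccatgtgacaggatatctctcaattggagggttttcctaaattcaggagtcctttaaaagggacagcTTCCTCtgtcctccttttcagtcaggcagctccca
Stab1: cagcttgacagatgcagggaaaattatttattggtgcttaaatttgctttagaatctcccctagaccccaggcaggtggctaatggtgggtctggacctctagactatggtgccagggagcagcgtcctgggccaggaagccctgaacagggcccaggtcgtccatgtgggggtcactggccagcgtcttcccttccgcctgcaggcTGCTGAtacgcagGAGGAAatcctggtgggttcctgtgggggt
Pf4: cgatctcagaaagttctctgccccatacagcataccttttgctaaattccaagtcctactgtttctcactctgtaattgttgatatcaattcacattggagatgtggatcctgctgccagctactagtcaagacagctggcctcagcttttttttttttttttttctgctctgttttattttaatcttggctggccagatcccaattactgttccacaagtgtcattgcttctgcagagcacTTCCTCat
Mrc1 held GAGGAA at 3 places, all on the opposite strand and the nearest 35 to 30 bases before the start, Stab1 at 1 place 30 to 25 bases before the start, and Pf4 at 1 place on the opposite strand 8 to 3 bases before the start. Stab1 also held TGCTGA 43 to 38 bases before its start. Of the 7 members with a promoter entry (Lyve1 has none), 5 held GAGGAA on either strand, which 23.3% of the 32851 promoters hold, and 2 held TGCTGA (Stab1 and Folr2), which 16.1% hold. The NF-κB consensus was in 0 of 7 (7.25% of all promoters), and TGANTCA, the AP-1 site, in 1 of 7, a second start of Folr2 (6.75% of all). A member counts where any of its entries holds the motif, F13a1 and Folr2 having more than 1 entry. The shares of all promoters are over single entries, so the measures differ. GAGGAA and TGCTGA can share the bases GA, as can TGCTGA and TGANTCA, and the matches of GAGGAA and TGCTGA in Stab1 do not touch. These matches describe the sequence and are not measured sites.

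Lyve1 is a hyaluronan receptor, first known from lymphatic vessels, that marks perivascular and leptomeningeal macrophages (ENSMUSG00000030787, chr7:110850607-110863239, − strand, no overlapping gene). It was 41.1 ± 8.64 CPM in IkbkbWT and 31.7 ± 16.7 CPM in Ikbkb+/+, which overlapped, then 13.4 ± 8.09 CPM in PS19, 12.8 ± 7.11 CPM in NTG, 4.22 ± 3.99 CPM in Ikbkb-/- and 1.82 ± 1.27 CPM in IkbkbCA, each overlapping the next. In the tau experiment it had 1 count in a single vehicle library and 0 in the other 7 libraries, where a count of 3 would be the floor. The 9 endothelial markers listed, among them the lymphatic gene Prox1, summed to 104 to 151 CPM in IkbkbWT, 80.7 to 156 CPM in IkbkbCA, 114 to 153 CPM in Ikbkb+/+ and 207 to 252 CPM in Ikbkb-/-. In IkbkbWT Cldn5 and Flt4 were at 0 and Prox1 was at 33.3 to 61.1 CPM. Their part in the Lyve1 level was not tested.

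Cd163, the receptor for haemoglobin bound to haptoglobin (ENSMUSG00000008845, chr6:124304656-124330527, + strand), was highest in the adult cells. It was 24.8 ± 9.72 CPM in NTG and 24.3 ± 10.7 CPM in PS19, and did not overlap with any culture: 2.55 ± 2.58 CPM in Ikbkb+/+, 0.687 ± 0.640 CPM in IkbkbWT, and at most 3 counts in every library of IkbkbCA, Ikbkb-/-, tau fibrils and vehicle. Cbr2, a carbonyl reductase (ENSMUSG00000025150, chr11:120729489-120732114, − strand), was likewise highest in the adult cells, with a mean of 21.8 ± 6.82 CPM in PS19 and 17.3 ± 6.67 CPM in NTG, with 9.37 ± 2.10 CPM in IkbkbWT and 9.04 ± 2.62 CPM in Ikbkb+/+. Those 4 groups overlapped in order, and the other 4 were below 3.4 CPM in every library.

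Folr2, the folate receptor β of tissue macrophages (ENSMUSG00000032725, chr7:101839988-101857194, − strand), varied least between groups: 77.8 ± 44.7 CPM in IkbkbWT, 75.2 ± 26.6 CPM in Ikbkb+/+, 47.7 ± 14.5 CPM in Ikbkb-/-, 32.0 ± 18.8 CPM in IkbkbCA, 26.3 ± 9.38 CPM in PS19, 23.5 ± 11.2 CPM in NTG, 21.6 ± 4.63 CPM for vehicle and 18.9 ± 4.84 CPM with tau fibrils, every neighbour in that order overlapping. It overlaps the antisense gene Gm10602 and the pseudogene Gm45319. Pf4, the chemokine CXCL4 that platelets store and macrophages of the brain borders also make (ENSMUSG00000029373, chr5:90772435-90773383, + strand), was 381 ± 246 CPM in IkbkbCA, 376 ± 110 CPM in IkbkbWT and 302 ± 16.02 CPM in Ikbkb+/+, then 153 ± 12.7 CPM in Ikbkb-/-, 112 ± 37.3 CPM in PS19, 93.0 ± 3.81 CPM with tau fibrils, 90.4 ± 20.8 CPM in NTG and 61.7 ± 13.4 CPM with vehicle. The 6 other platelet and megakaryocyte markers listed summed to 1.52 to 8.98 CPM in the cultures and 10.4 to 39.8 CPM in the adult libraries. Ppbp, the platelet basic protein, reached at most 1.64 CPM in any library. F13a1, the A subunit of coagulation factor XIII, a transglutaminase (ENSMUSG00000039109, chr13:36867178-37050244, − strand, with the antisense genes Gm49144 and Gm30489 on the other strand), was 135 ± 80.4 CPM in IkbkbWT, 84.5 ± 44.0 CPM in Ikbkb+/+, 81.0 ± 11.6 CPM in PS19 and 78.8 ± 34.6 CPM in NTG, and lower without overlap in IkbkbCA (21.8 ± 14.7 CPM), Ikbkb-/- (15.4 ± 6.74 CPM), tau fibrils (2.80 ± 0.517 CPM) and vehicle (1.85 ± 1.85 CPM).

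**Figure D1:**
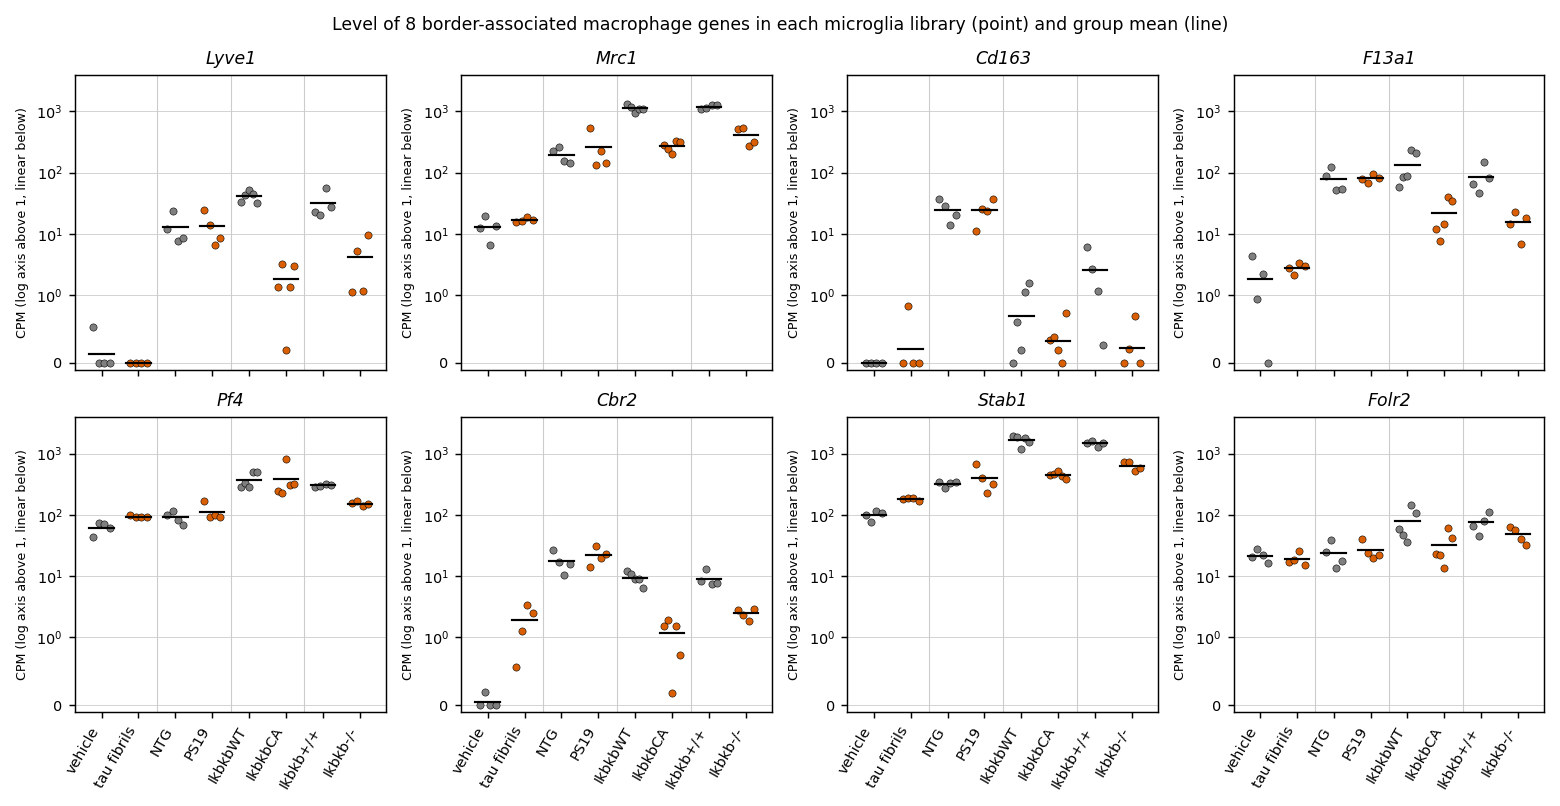
CPM of each of the 8 genes (one panel a gene, logarithmic above 1 and linear below) in the 34 microglia libraries; points are libraries, grey for controls and orange for the treated or altered group, and lines are group means. Lyve1, Mrc1, Stab1, F13a1 and Cbr2 lie lower in IkbkbCA and Ikbkb-/- than in their controls without overlap, Cd163 is above 10 CPM only in the adult PS19 and NTG libraries, and 1 IkbkbCA library stands apart in Pf4 at 815 CPM.

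The first comparison asks what activation of IKKβ does to these genes. In IkbkbCA microglia 5 of the 7 members tested fell against IkbkbWT (adjusted p under 0.05, edgeR quasi-likelihood test over 11697 genes), from 3.77-fold for Stab1 to 23.6-fold for Lyve1, and none rose. Of all genes tested 7.16% were called lower. The groups of these 5 genes did not overlap, as was so for 5.33% of all genes in that direction.

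Lyve1 was 33.1, 43.4, 52.7, 44.2 and 32.0 CPM in the IkbkbWT libraries and 1.35, 3.25, 0.184, 1.37 and 2.95 CPM in the IkbkbCA libraries. Every control library was above every IkbkbCA library, and the log2 fold change was -4.56 ± 0.38 (adjusted p = 1.75e-05, edgeR). Mrc1 was 1296, 1174, 946.4, 1108 and 1086 CPM in IkbkbWT and 283, 246, 198, 323 and 310.4 CPM in IkbkbCA, a log2 fold change of -2.07 ± 0.14 (adjusted p = 4.43e-06, edgeR). Stab1 was 1949, 1858, 1177, 1807 and 1539 CPM in IkbkbWT and 448, 472, 516, 427 and 386 CPM in IkbkbCA, a log2 fold change of -1.92 ± 0.13 (adjusted p = 4.87e-06, edgeR). Mrc1 and Stab1 varied little within each group, the lowest control library of Stab1 being replicate 3. Lyve1 in IkbkbCA spread over a 17.6-fold range at these low counts.

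Cbr2 was 11.8, 10.8, 8.76, 9.003 and 6.39 CPM in IkbkbWT and 1.52, 1.91, 0.184, 1.51 and 0.737 CPM in IkbkbCA, a log2 fold change of -2.96 ± 0.38 (adjusted p = 0.000327, edgeR). F13a1 was 58.4, 85.5, 87.0, 237 and 205 CPM in IkbkbWT and 11.8, 7.65, 14.4, 40.5 and 34.6 CPM in IkbkbCA, a log2 fold change of -2.66 ± 0.52 (adjusted p = 0.00505, edgeR). In F13a1 replicates 4 and 5 of both groups were above replicates 1 to 3 of their own group. Folr2 showed the same split, with 58.7, 46.6, 35.8, 142 and 106 CPM in IkbkbWT and 22.8, 21.8, 13.4, 60.2 and 41.5 CPM in IkbkbCA, and its log2 fold change of -1.31 ± 0.45 did not pass (adjusted p = 0.0783, edgeR).

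Pf4 was the exception among the members. It was 280.0, 334, 279, 493 and 495 CPM in IkbkbWT and 243, 224, 815, 307 and 318 CPM in IkbkbCA, a log2 fold change of -0.02 ± 0.34 (adjusted p = 0.983, edgeR), and the 815 CPM belong to replicate 3. Without that library the log2 fold change was -0.46 (adjusted p = 0.176). Cd163 was too low to be tested, with 0, 3, 1, 7 and 14 counts in IkbkbWT and 2, 2, 1, 0 and 3 counts in IkbkbCA; in CPM terms IkbkbWT was 2.74-fold higher (exact 95% interval 1.196 to 7.02, counting error only), and 21 of its 25 counts came from replicates 4 and 5.

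Neuron markers summed to 92.6 to 112 CPM in replicates 4 and 5 of both groups and 5.42 to 21.99 CPM in the others, and oligodendrocyte markers to 4656 and 1703 CPM in the replicates 3 and 329 to 730 CPM in the others, and these 3 sets of libraries (1 and 2, 3, 4 and 5) were compared on their own, a split made after seeing the data. The sets also follow the split of F13a1 and Folr2 given above, so the Folr2 values with these sets are not independent of that split. Within the sets the log2 ratio of IkbkbCA to IkbkbWT for Folr2 was -1.24, -1.41 and -1.28, and for F13a1 -2.89, -2.60 and -2.56. With the set as a covariate Folr2 was called lower (-1.31, adjusted p = 5.23e-06, edgeR) and the count rose to 6 of 7, while Pf4 was not called (-0.17, adjusted p = 0.682). Calls over all genes rose as well, with 1560 of 11697 called lower in that fit against 837 without the covariate. The within-set ratio of Pf4 was -0.40 in the first set and -0.66 in the last, against 1.55 in the pair of replicates 3. Lyve1 gave -4.06, -8.16 and -4.14, the middle value resting on 1 count. Mrc1 gave -2.22, -2.25 and -1.79, Cbr2 -2.73, -5.57 and -2.78, and Stab1 -2.05, -1.19 and -2.04. In IkbkbWT the sets also differed in sex (Ddx3y above), and leaving out replicates 4 and 5 of IkbkbWT left the 5 calls and moved F13a1 to -1.82 (adjusted p = 0.0366) and Folr2 to -0.56 (adjusted p = 0.466). Cell-cycle genes summed to 463 to 641 CPM in IkbkbWT and 267 to 496 CPM in IkbkbCA. Monocyte markers summed to 211 to 267 CPM and 203 to 486 CPM, and granulocyte markers to 7.27 to 14.3 CPM and 17.2 to 85.5 CPM. Their part in the result was not tested.

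The second comparison asks what loss of IKKβ does to them. In Ikbkb-/- microglia all 7 members tested fell against Ikbkb+/+ (adjusted p under 0.05, edgeR, over 11242 genes), from 1.64-fold for Folr2 to 6.52-fold for Lyve1. Of all genes 6.96% were called lower. In 6 of the 7, all but Folr2, the groups did not overlap, against 8.82% of all genes in that direction.

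Lyve1 was 22.7, 20.5, 56.5 and 27.2 CPM in Ikbkb+/+ and 1.09, 5.17, 1.15 and 9.48 CPM in Ikbkb-/-, a log2 fold change of -2.70 ± 0.41 (adjusted p = 0.000127, edgeR). F13a1 was 64.0, 46.2, 147 and 80.9 CPM in Ikbkb+/+ and 14.2, 22.5, 6.69 and 18.2 CPM in Ikbkb-/-, a log2 fold change of -2.43 ± 0.32 (adjusted p = 2.70e-05, edgeR). Ikbkb+/+ replicate 3 was the highest library of both genes. Mrc1 was 1100, 1133, 1285 and 1266 CPM in Ikbkb+/+ and 509, 534, 270 and 317 CPM in Ikbkb-/-, a log2 fold change of -1.55 ± 0.17 (adjusted p = 2.02e-06, edgeR). Stab1 was 1513, 1624, 1299 and 1514 CPM against 731, 719, 515 and 572 CPM, a log2 fold change of -1.23 ± 0.11 (adjusted p = 3.10e-07, edgeR). For both receptors Ikbkb-/- replicates 3 and 4 lay below replicates 1 and 2.

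Pf4 was tight in both groups, at 286, 294, 323 and 306 CPM in Ikbkb+/+ and 153, 168, 137 and 152 CPM in Ikbkb-/-, a log2 fold change of -0.98 ± 0.08 (adjusted p = 8.07e-08, edgeR). Cbr2 was 8.27, 12.9, 7.39 and 7.56 CPM against 2.74, 2.28, 1.85 and 2.92 CPM, a log2 fold change of -1.87 ± 0.28 (adjusted p = 0.000124, edgeR). Folr2 overlapped: 66.2, 45.8, 80.0 and 109 CPM in Ikbkb+/+ and 63.5, 55.6, 39.9 and 31.7 CPM in Ikbkb-/-, a log2 fold change of -0.71 ± 0.22 (adjusted p = 0.0348, edgeR) that DESeq2 did not call (adjusted p = 0.201) and that was lost on leaving out any of 4 single libraries, at log2 fold changes of -0.68, -0.48, -0.65 and -0.55. Cd163 had 17, 13, 7 and 2 counts in Ikbkb+/+ and 0, 1, 3 and 0 in Ikbkb-/-, which makes Ikbkb+/+ 7.55-fold higher in CPM terms (exact 95% interval 2.72 to 29.1, counting error only).

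With Ddx3y as a covariate, which separates these groups completely, 3 of the 7 remained called: Stab1 (-1.73), Cbr2 (-2.93) and Pf4 (-0.91). Mrc1 was -1.60 (adjusted p = 0.0810), Lyve1 -0.90 (adjusted p = 0.728), F13a1 -0.66 (adjusted p = 0.743) and Folr2 0.48 (adjusted p = 0.760) in that fit, all with edgeR. Ikbkb, the deleted gene, was also not called in that fit (-1.06, adjusted p = 0.0974, edgeR), against -1.20 ± 0.12 without the covariate. A call lost in that fit therefore does not separate sex from genotype. All 10 cell-cycle genes listed were also lower in Ikbkb-/-, their summed level being 247 to 365 CPM against 603 to 768 CPM, and their part in the result was not tested. Oligodendrocyte markers were higher in Ikbkb-/-, at 527 to 613 CPM against 303 to 401 CPM. The sum of the 9 endothelial markers was also higher, at 207 to 252 CPM against 114 to 153 CPM. Of the 5 tested 1 was called higher and 1 lower, with a median log2 fold change of 0.05. The sum of the dendritic cell markers was lower, at 3.28 to 6.01 CPM against 8.22 to 10.7 CPM. Only 1 of these 6 markers was high enough to be tested, and it was not called (log2 fold change -0.64). Granulocyte markers summed to 12.3 to 408 CPM in Ikbkb+/+ and 9.70 to 15.3 CPM in Ikbkb-/-. Monocyte markers summed to 226 to 267 CPM and 145 to 186 CPM, with Ly6c2 at 2 counts or fewer in every library of both groups. The part of these markers in the result was not tested.

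**Figure D2:**
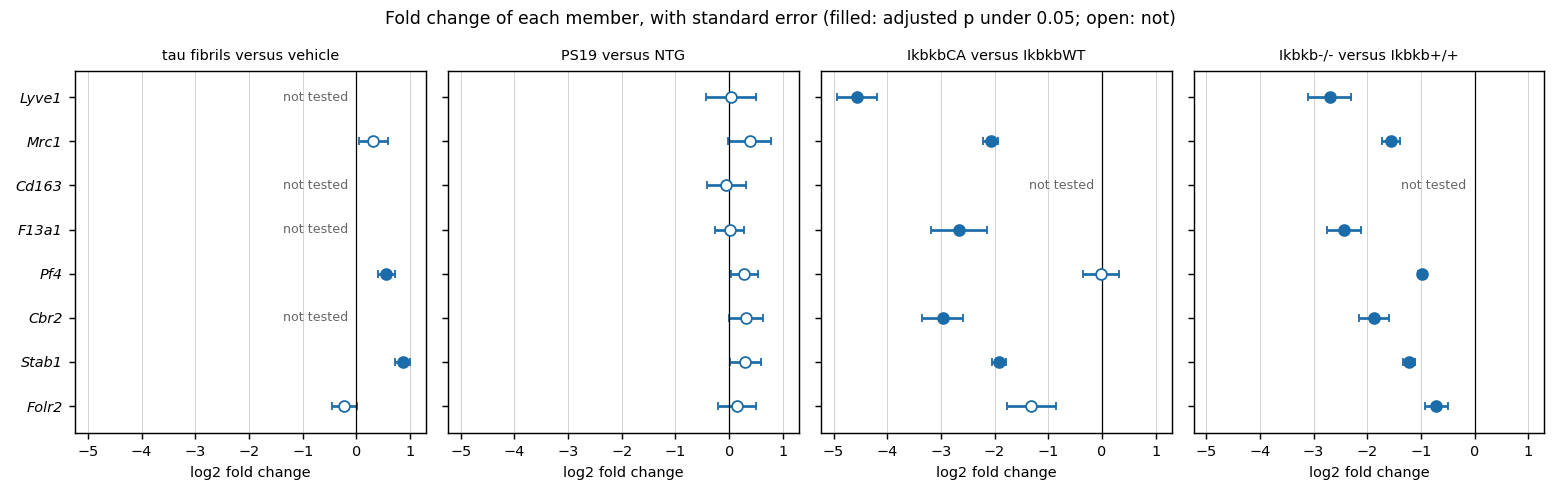
Log2 fold change of each member with its standard error in the 4 comparisons; filled points passed an adjusted p of 0.05, open points did not, and genes too low to be tested carry no point. In IkbkbCA 5 points and in Ikbkb-/- 7 points are filled and lie left of 0, in tau fibrils Pf4 (0.56) and Stab1 (0.86) are filled and lie right of 0, and no point is filled for PS19.

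Activation and loss of IKKβ share no libraries, so the effects can be set against each other. The difference of the effects, tested in a fit of the 18 libraries, was called for 0 of the 7 members by edgeR and by limma-voom and for 1 (Stab1) by DESeq2; 4 had an unadjusted p below 0.05, and 3.12% of all genes were called. It was -1.82 ± 0.70 for Lyve1 (adjusted p = 0.202), -1.06 ± 0.50 for Cbr2 (adjusted p = 0.313), -0.67 ± 0.19 for Stab1 (adjusted p = 0.0666) and 0.99 ± 0.41 for Pf4 (adjusted p = 0.249). A negative value means a larger fall in IkbkbCA. The average of the effects, the mean of the log2 fold changes in IkbkbCA and Ikbkb-/-, was lower for 6 of 7 members (10.1% of all genes): Lyve1 -3.64 ± 0.34, F13a1 -2.54 ± 0.37, Cbr2 -2.42 ± 0.25, Mrc1 -1.80 ± 0.13, Stab1 -1.56 ± 0.10 and Folr2 -0.99 ± 0.29. Pf4 had -0.49 ± 0.21 and did not pass (adjusted p = 0.108), but did without IkbkbCA replicate 3 (-0.73, adjusted p = 0.000177). The Folr2 call was kept in 23 of 27 alternatives and lost in 4, all with edgeR. It was lost without Ikbkb+/+ replicate 4 (-0.87, adjusted p = 0.0582) and without Ikbkb-/- replicate 4 (-0.90, adjusted p = 0.0585). It was also lost with Ddx3y as covariate (-0.59, adjusted p = 0.151). Leaving out both IkbkbWT libraries with almost no Ddx3y lost it too (-0.62, adjusted p = 0.113).

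**Figure D3:**
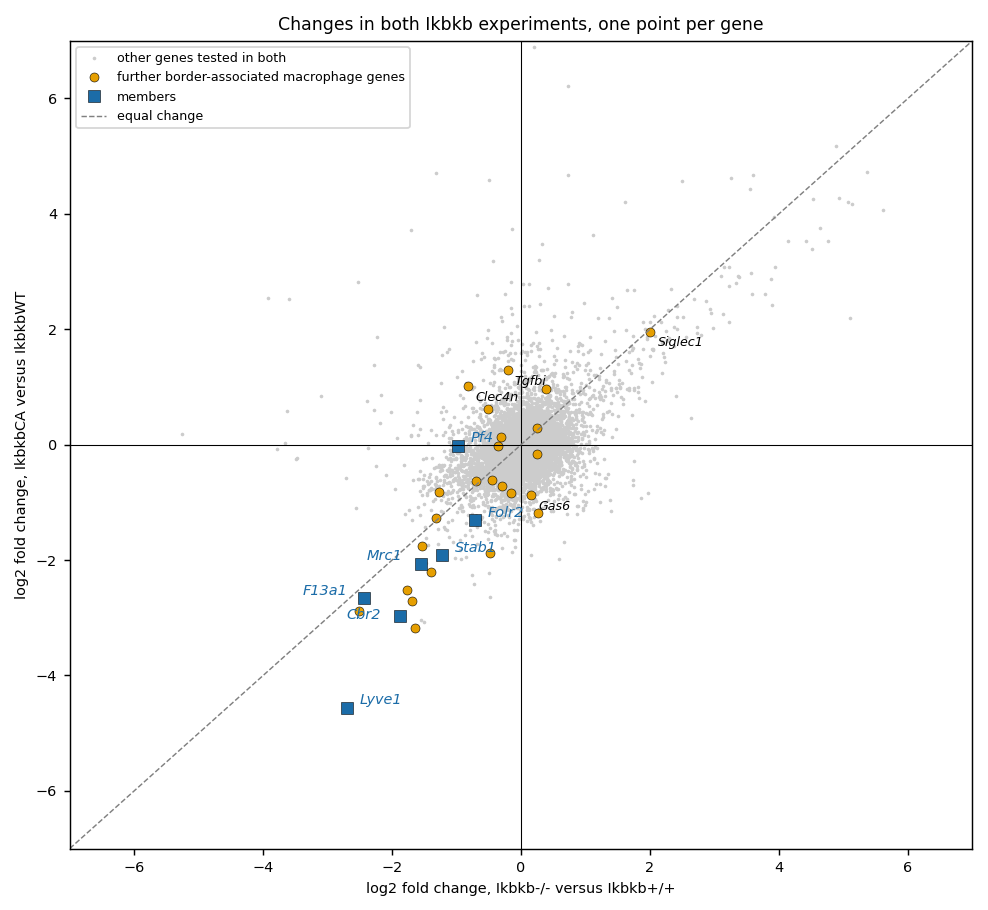
Log2 fold change in IkbkbCA (vertical) against that in Ikbkb-/- (horizontal), one point per gene tested in both; squares are members, orange points the further border-associated macrophage genes, and the dashed line marks equal change. Lyve1 lies lowest of the members at -4.56 and -2.70, Pf4 lies on the horizontal axis at -0.02 and -0.98, and Siglec1 lies at the upper right at 1.96 and 2.01.

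The third comparison asks about tau fibrils in culture. Of 4 members tested Stab1 and Pf4 rose, Mrc1 and Folr2 did not pass, and Lyve1, Cd163, F13a1 and Cbr2 were too low to be tested; 14.5% of the 10408 genes tested were called higher. Stab1 was 180.0, 190.2, 189 and 169.9 CPM after tau fibrils and 101, 76.9, 114 and 108 CPM with vehicle, a log2 fold change of 0.86 ± 0.14 (adjusted p = 2.03e-05, edgeR). Pf4 was 98.6, 90.3, 91.3 and 91.9 CPM against 42.8, 72.0, 70.2 and 61.6 CPM, a log2 fold change of 0.56 ± 0.15 (adjusted p = 0.00667, edgeR), which fell to 0.40 (adjusted p = 0.0510) when libraries were scaled by total counts alone. Both groups were without overlap, as for 14.7% of all genes in that direction.

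Mrc1 was 15.6, 16.4, 18.5 and 16.9 CPM after tau fibrils and 12.3, 19.3, 6.50 and 13.5 CPM with vehicle, a log2 fold change of 0.32 ± 0.27 (adjusted p = 0.424, edgeR). Folr2 was 16.7, 18.1, 25.9 and 14.9 CPM against 20.3, 27.7, 21.7 and 16.5 CPM, a log2 fold change of -0.22 ± 0.23 (adjusted p = 0.518, edgeR). Both overlapped throughout. F13a1 had 5 to 9 counts per tau library and 0 to 8 per vehicle library. Cbr2 had 1, 3, 9 and 5 counts with tau fibrils and a single count over the 4 vehicle libraries, a 23.3-fold difference with an exact 95% interval of 3.68 to 971 for counting error only. The 20 homeostatic microglia genes listed summed to 9018 to 10150 CPM with tau fibrils and 5410 to 6520 CPM with vehicle. Of 17 tested, 8 rose and 2 fell. Cx3cr1 rose by 1.08 ± 0.14, so a rise was not particular to Stab1 and Pf4. Marker sums of other cells were lower with tau fibrils: astrocyte markers 351 to 415 CPM against 645 to 691 CPM, neuron markers 65.8 to 81.9 CPM against 125 to 151 CPM and cell-cycle genes 269 to 308 CPM against 467 to 558 CPM. Their part in the result was not tested.

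The last comparison asks about PS19 microglia. All 8 members were tested and 0 were called by edgeR, DESeq2 or limma-voom, with 0 at an unadjusted p below 0.05; edgeR called 0.0707% of all genes here (8 of 11323). The log2 fold changes ran from -0.05 ± 0.37 for Cd163 to 0.38 ± 0.41 for Mrc1, and standard errors of 0.25 to 0.47 leave changes of that size undetectable. Lyve1 was 24.6, 14.1, 6.66 and 8.38 CPM in PS19 and 12.1, 23.1, 7.73 and 8.43 CPM in NTG. Cd163 was 11.0, 25.4, 23.7 and 37.1 CPM in PS19 and 36.3, 28.6, 13.9 and 20.5 CPM in NTG.

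PS19 replicate 1 stood apart. It had the highest Mrc1 (534 CPM, the other 3 PS19 libraries being 134, 222 and 141 CPM), Stab1 (666 CPM against 399, 224 and 315 CPM), Pf4 (168 CPM against 90.3, 99.4 and 91.5 CPM), Folr2 (40.2 CPM) and Lyve1, and the lowest Cd163 and Cbr2 (14.2 CPM against 30.6, 20.0 and 22.4 CPM). Its cell-cycle genes summed to 429 CPM against 141 to 179 CPM in the other 7 adult libraries, its homeostatic microglia genes to 53992 CPM against 62968 to 102404 CPM, and Xist was 176 CPM in this library labelled male against 1.88 to 33.1 CPM. Without it the log2 fold change was -0.29 for Mrc1, -0.09 for Stab1, 0.00 for Pf4, -0.48 for Lyve1 and 0.18 for Cd163, and again 0 members were called.

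A list of 32 further border-associated macrophage genes was read beside the members. In IkbkbCA 14 of 26 tested fell and 4 rose (7.31% of all genes were called higher), with a median log2 fold change of -0.82 beside -0.05 over all genes. The largest falls were those of Ccr1, a chemokine receptor, at -3.18, the chemokine Ccl24 at -2.87, the endothelin receptor Ednrb at -2.71, the lectin Clec10a at -2.52 and the ficolin Fcna at -2.20, and Siglec1, sialoadhesin, rose by 1.96. In Ikbkb-/- 14 of 25 fell and 3 rose (7.64% of all genes higher), with a median of -0.49 beside 0.00. The log2 fold change was -2.51 for Ccl24, -1.77 for Clec10a, -1.69 for Ednrb, -1.64 for Ccr1 and -1.54 for the scavenger receptor Cd36, while Siglec1 rose by 2.01. With Ddx3y as covariate 3 of the further genes were called in Ikbkb-/-.

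Siglec1 thus moved against the members in both experiments, from 6.00 to 16.03 CPM in IkbkbWT to 22.7 to 55.4 CPM in IkbkbCA, and from 5.40 to 11.5 CPM in Ikbkb+/+ to 32.5 to 42.6 CPM in Ikbkb-/-. Ms4a7 was also called higher in both, with log2 fold changes of 0.97 in IkbkbCA and 0.39 in Ikbkb-/-. The difference of the effects was called for 5 of 27 further genes: Clec4n (1.84 ± 0.17), which rose in IkbkbCA by 1.01 and fell in Ikbkb-/- by 0.82, Tgfbi (1.53 ± 0.21), Ms4a7 (0.59 ± 0.14), Ccr1 (-1.504 ± 0.34) and Gas6 (-1.01 ± 0.21).

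With tau fibrils 11 of 21 further genes rose and 3 fell (15.4% of all genes were called lower), with a median of 0.75 beside -0.01. Tgfbi, a matrix protein, rose by 3.89 ± 0.16, from 34.6 ± 6.60 CPM to 510 ± 28.2 CPM, Siglec1 by 3.30, Cd38, an NAD-consuming enzyme, by 2.83, Ms4a7 by 2.45, Clec4n by 2.43 and Igfbp4 by 2.30. Cd38 and Igfbp4, followed further after their values were seen, fell in both Ikbkb genotypes, Cd38 with log2 fold changes of -1.29 in IkbkbCA and -0.69 in Ikbkb-/- and Igfbp4 with -0.81 and -1.27. In PS19 0 of 29 further genes were called by edgeR.

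**Figure D4:**
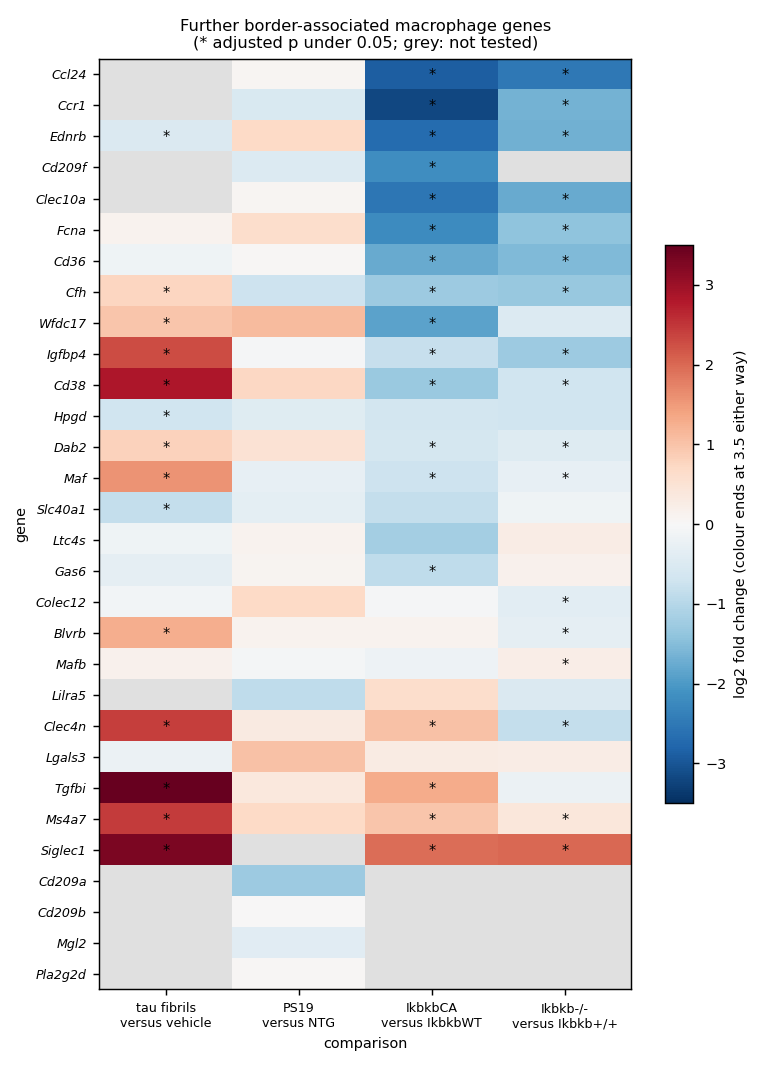
Log2 fold change (colour, red higher and blue lower) of the 30 of 32 further border-associated macrophage genes tested in at least 1 comparison; stars mark an adjusted p under 0.05 and grey marks genes too low to be tested. Ccl24, Ccr1, Ednrb and Clec10a are blue in both Ikbkb columns, Siglec1 and Ms4a7 are red there and with tau fibrils, and the PS19 column has no star.

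Other lists that bear on the members are given by their counts, beside the shares of all genes called above. Among 14 genes of hyaluronan handling, 3 of 8 tested fell in IkbkbCA and 3 of 8 in Ikbkb-/-, the same 3 in both: Stab2, a paralogue of Stab1 that takes up hyaluronan (-1.61 and -1.48), Cemip2 (-0.87 and -0.66) and the motility receptor Hmmr (-0.78 and -1.41). Among 8 genes of haemoglobin and haem handling, 2 of 7 tested fell and 2 rose in IkbkbCA, the latter being Hp, haptoglobin, which binds the haemoglobin that Cd163 takes up (adjusted p = 0.00188, edgeR), and the ferritin chain Fth1, which rose by 1.18. In Ikbkb-/- 2 of 6 tested fell and 1 rose, Fth1 by 0.37. Of 6 genes of folate uptake and use, 1 of 5 tested was called in IkbkbCA (the folate carrier Slc46a1, 0.49 higher) and 2 of 5 fell in Ikbkb-/-. Of 16 alternative activation genes, a state in which Mrc1 is a common marker, 1 of 7 tested fell and 2 rose in IkbkbCA, with Tgm2 at 1.63, and 2 of 6 fell in Ikbkb-/- (Socs3 at -1.59 and Egr2 at -1.11). Of 20 homeostatic microglia genes, 3 fell and 5 rose in IkbkbCA (median -0.06), and 8 fell and 2 rose in Ikbkb-/- (median -0.15), led by Siglech at -3.79.

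The genes whose pattern lay nearest to that of the members were, by Pearson r with the mean of the 8 members over the 34 libraries after each library was set against its own experiment, Clcn5 (0.90), Ccl24 (0.89), Fcna (0.85), Itsn1 (0.83) and Ap2a2 (0.82). Libraries of a group share their genotype or treatment, so the r follows the contrasts of the experiments as well as the spread within groups, and it is a description. Clcn5, an endosomal chloride transporter, had log2 fold changes of -1.14 in IkbkbCA and -0.92 in Ikbkb-/-, Itsn1, an endocytic scaffold, of -1.35 and -1.13, and Ap2a2, a subunit of the AP-2 clathrin adaptor, of -0.90 and -0.62.

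**Figure D5:**
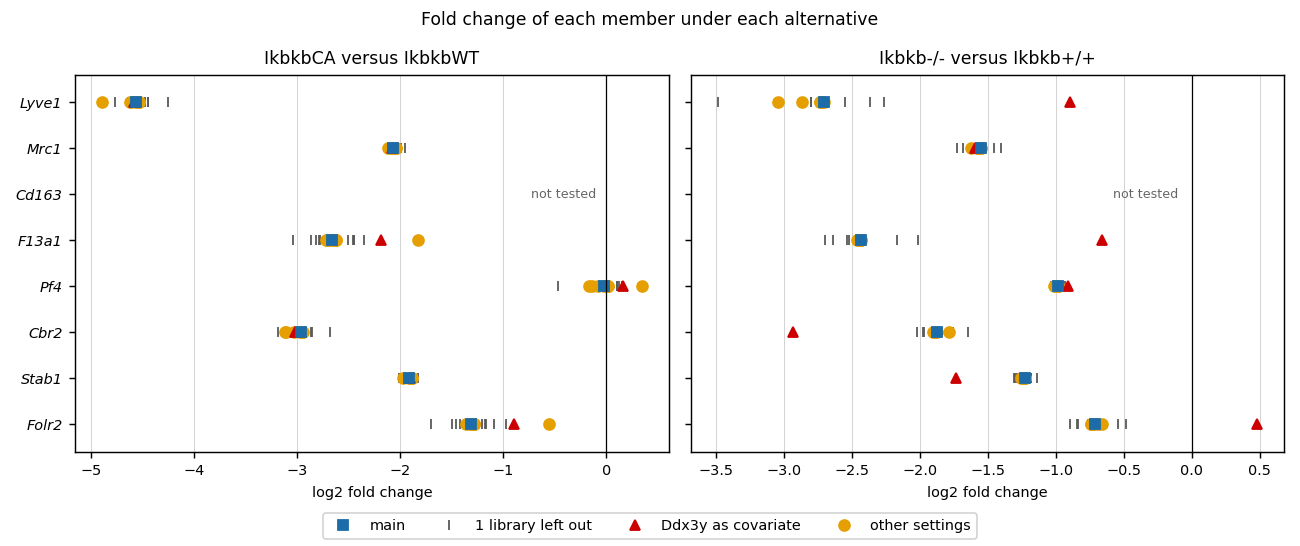
Log2 fold change of each member in IkbkbCA (left) and Ikbkb-/- (right) under every alternative; squares are the values reported, ticks leave out 1 library, triangles have Ddx3y as covariate and circles are other scalings, filters, tools and splits. In IkbkbCA every value of Lyve1, Mrc1, F13a1, Cbr2, Stab1 and Folr2 is below 0 and Pf4 lies on both sides, and in Ikbkb-/- the triangles of Lyve1, F13a1 and Folr2 lie far to the right of the squares, at -0.90, -0.66 and 0.48.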

How the data were processed

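The authors trimmed and aligned QuantSeq 3′ mRNA-Seq reads and deposited read counts per Ensembl gene for each library, not normalized; the submitters' notes name GRCm38, STAR, RSEM, edgeR and limma, without saying which step used which. Symbols and positions came from GENCODE M21 on GRCm38, which named 47224 of the 47643 genes. The members and gene lists were chosen with earlier results of these data known. Lines of the tables that name no gene, 12.4 to 38.3% of a library, were left out of library sizes. Each comparison was fitted on its own libraries with edgeR 4.0.16 (R 4.3.3): filterByExpr (minimum count 10, minimum total 15), TMM and the quasi-likelihood F test with Benjamini-Hochberg adjustment over all genes tested and a threshold of 0.05. A standard error is the log2 fold change divided by the square root of F. The difference and the average of the Ikbkb effects came from a fit of 18 libraries. Levels are CPM with TMM factors over 34 libraries. Replicates are numbered in accession order. All members are named, and of other lists at most 6 called genes a comparison, by size of change. Alternatives were other scalings and filters, DESeq2 1.42.0, limma-voom (limma 3.58.1), covariates and leaving out libraries; scripts were tested on simulated data. Total counts set the precision of low genes, and exact intervals cover counting error only. The 24 cortex samples were not analysed here. Results on some genes are not reported here.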

Additional observations from a re-analysis of the deposited data

Results flagged for a closer look

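Of 73 sets of 4 or 5 libraries checked, 3 held a library far from the others, no more than the about 1 in 20 that chance flags. Pf4 was 168 CPM in PS19 replicate 1 and 815 CPM in IkbkbCA replicate 3, and Cbr2 was 12.9 CPM in Ikbkb+/+ replicate 2. In 5 further border-associated macrophage genes the effect of IkbkbCA differed from that of Ikbkb-/- by the test of the difference in a fit of the 18 libraries (edgeR): Clec4n by 1.84 (adjusted p = 3.18e-06), Tgfbi by 1.53 (adjusted p = 0.000268), Ms4a7 by 0.59 (adjusted p = 0.0245), Ccr1 by -1.504 (adjusted p = 0.0181) and Gas6 by -1.01 (adjusted p = 0.00939), each as the log2 change in IkbkbCA minus that in Ikbkb-/-.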

How the results depend on the processing

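Of 798 alternative values of the members' log2 fold changes, 737 kept their direction and their side of the threshold, 15 no longer passed, 12 newly passed and 34 changed sign. The count of members called was 1 with tau fibrils under total counts only, 3 in IkbkbCA with at least 10 counts in every library (fewer genes tested), 3 in Ikbkb-/- with Ddx3y as covariate, and 1 (Stab1) for the difference under total counts only, at least 10 counts in every library, DESeq2 or the 3 sets as covariate (chosen after seeing the data). Leaving out 1 library gave 0 to 1 for the difference, 5 to 6 in IkbkbCA, 6 to 7 in Ikbkb-/-, 2 with tau fibrils and 0 in PS19. Of the values that changed sign, Pf4 in IkbkbCA gave 0.0193 with RLE size factors, 0.0109 with no filter, 0.0198 with DESeq2, 0.16 with Ddx3y, 0.00188 in one fit of 18 libraries, 0.35 without IkbkbWT replicates 4 and 5, and -0.46 to 0.15 without 1 library. In PS19 Lyve1 gave -0.0074 with limma-voom and Cd163 0.49 with age as covariate, and leaving out 1 library gave -0.48 to 0.52 for Lyve1, -0.29 to 0.62 for Mrc1, -0.34 to 0.20 for Cd163, -0.17 to 0.35 for F13a1, -0.0886 to 0.50 for Stab1 and -0.16 to 0.53 for Folr2. Folr2 in Ikbkb-/-, called at -0.71, gave 0.48 with Ddx3y. For the difference, F13a1 (-0.21) gave 0.62 and Folr2 (-0.61) gave 0.14 without IkbkbWT replicates 4 and 5, and F13a1 -0.60 to 0.0943 without 1 library. The cause of these changes was not tested.

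Over all genes the count called in PS19 was 8, and 166 with no filter, 103 with DESeq2, 4 with limma-voom, 0 with age and 4 to 54 without 1 library. It was 1692 in IkbkbCA, 2846 with the sets and 1047 without IkbkbWT replicates 4 and 5, 1641 in Ikbkb-/-, 305 with Ddx3y and 875 in one fit, and 386 for the difference, 971 with the sets. Of further border-associated macrophage genes 3 were called in PS19 with no filter, 3 in Ikbkb-/- with Ddx3y, and for the difference 8 with no filter, 12 with the sets and 3 to 6 without 1 library. Total counts only moved the median of all genes from -0.01 to -0.16 with tau fibrils and from -0.05 to -0.11 in IkbkbCA. No paired analysis was possible because the labels give the groups no shared replicate numbers; the 3 sets used as a covariate in IkbkbCA were read from marker levels after seeing the data. Depth limits Cd163, Cbr2, F13a1 and Lyve1 in the tau cultures, where single counts decide the values.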
